A study of Rattus norvegicus with 6 samples.

Results

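The genes described here encode proteins of the muscle Z-disc and of the filament systems tied to it: nexilin (Nexn), the PDZ and LIM domain proteins Ldb3, Pdlim3, Pdlim5 and Pdlim7, the cysteine-rich LIM proteins Csrp1 and Csrp3, sarcomeric alpha-actinin (Actn2), synaptopodin 2 (Synpo2) and desmin (Des). They were taken by symbol from the deposited gene count table, which held all 10 of them among 19825 genes. All libraries were made from H9C2, a myoblast line established from the embryonic heart of the rat; the labels name the cells cardiomyocytes. In 3 libraries (siPUM2 1, 2 and 3) PUM2, a Pumilio protein that binds messages and lowers their stability or translation, had been reduced by transfected small interfering RNA. The 3 control libraries (NC 1, 2 and 3) are labelled as empty-vector transfections; whether a non-targeting small interfering RNA was used is not stated. No source used here gives the sequence of the interfering RNA, the time after transfection or says that replicates were grown separately; the p-values therefore rest on a spread between libraries that may be technical alone.

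The Z-disc is the plate at which the actin filaments of neighbouring sarcomeres are anchored and crosslinked, chiefly by alpha-actinin. PDZ and LIM domain proteins bind alpha-actinin there, and LIM proteins of the Csrp family bind it and move between the cytoskeleton and the nucleus. Costameres are the adhesion sites, built on integrins and on the dystrophin-glycoprotein complex, that tie the outermost Z-discs to the membrane and matrix, while desmin filaments link Z-discs sideways to each other and to the nucleus. Cells without sarcomeres use many of the same proteins at stress fibres and focal adhesions.

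Library totals ran from 27704702 (siPUM2 2) to 30579237 counts (NC 3), and a single count corresponded to 0.0326 to 0.036 CPM (counts scaled to library size). The targeted gene, Pum2 on chromosome 6, had 127, 126 and 119.7 CPM in siPUM2 1, 2 and 3, against 223, 228 and 225 CPM in NC 1, 2 and 3. This left 55.1% of the control level (log2 fold change -0.86 ± 0.0279, SE; adjusted p = 9.23e-19, edgeR's quasi-likelihood test, adjusted by Benjamini-Hochberg over all genes tested). Only 3 of 10 cardiomyocyte markers measured reached a mean of 1 FPKM (fragment counts scaled to gene length and library size): the troponin gene Tnnt2, called higher at 296 FPKM in siPUM2 and 186 FPKM in NC, Nkx2-5 and Nppb. Myh6 was at 0.06 FPKM in siPUM2 and 0.09 FPKM in NC, Actc1 at 0.0267 FPKM in siPUM2 and 0.06 FPKM in NC, and Tnni3 at 0.0833 FPKM in both groups. The myoblast factor Myod1 stood at 38.2 FPKM in siPUM2 and 37.0 FPKM in NC. All 7 markers of smooth muscle and myofibroblasts were called higher in siPUM2, and their summed level was 8030 to 8380 FPKM in siPUM2 libraries and 7070 to 7210 FPKM in NC libraries. Most of that sum was Acta2 (6120 FPKM in siPUM2 and 5408 FPKM in NC) and Tagln (1893 FPKM in siPUM2 and 1572 FPKM in NC). Of all genes tested, 15.1% were called higher. Endothelial markers summed to at most 0.29 FPKM in any library. In such bulk RNA, a change in the share of cells of some type and a change of RNA per cell cannot be told apart, and the part of these markers in the results below was not tested.

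The 10 genes spanned the whole range of expression. Per length, Csrp1 was the most abundant at 364 ± 3.16 FPKM in siPUM2 and 459 ± 4.33 FPKM in NC (SD, n = 3 each), above 98.6% of the genes tested in NC. It alone held 67.8% of the summed FPKM of the 10 genes in siPUM2 and 74.9% in NC. Pdlim5 followed at 66.1 ± 0.93 FPKM in siPUM2 and 63.7 ± 0.70 FPKM in NC. Pdlim7 and Nexn changed places in FPKM: Nexn stood above Pdlim7 in siPUM2 (51.3 ± 1.64 against 39.7 ± 1.14 FPKM) and below it in NC (35.2 ± 0.58 against 40.5 ± 0.254 FPKM), and in both cases the libraries of the 2 genes did not overlap. This crossing rested on the gene lengths behind the FPKM, near 8.28 kb for Pdlim7 and 4.3 kb for Nexn. In CPM, without length, Pdlim7 was above Nexn in siPUM2 (330 against 221) and in NC (336 against 151). Desmin came next at 12.7 ± 0.189 FPKM in siPUM2 and 11.4 ± 0.903 FPKM in NC. Synpo2 was low, at 1.69 ± 0.227 FPKM in siPUM2 and 1.6 ± 0.172 FPKM in NC. Ldb3 was at 0.79 ± 0.01 FPKM in siPUM2 and 0.617 ± 0.0586 FPKM in NC. The muscle-specific Csrp3 was at 0.357 ± 0.0153 FPKM in siPUM2 and 0.61 ± 0.0529 FPKM in NC, where it did not differ from Ldb3 beyond the spread. Pdlim3 averaged 0.243 ± 0.0814 FPKM in siPUM2 and 0.127 ± 0.0416 FPKM in NC. Actn2 was last, listed at 0 to 0.03 FPKM. Among these 10 genes, 4 of striated muscle (Actn2, Csrp3, Ldb3 and Pdlim3) thus had the least message, while the relatives found in many cell types (Csrp1, Pdlim5 and Pdlim7) were abundant. Desmin, also a muscle protein, was not among the scarce ones.

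**Figure D1:**
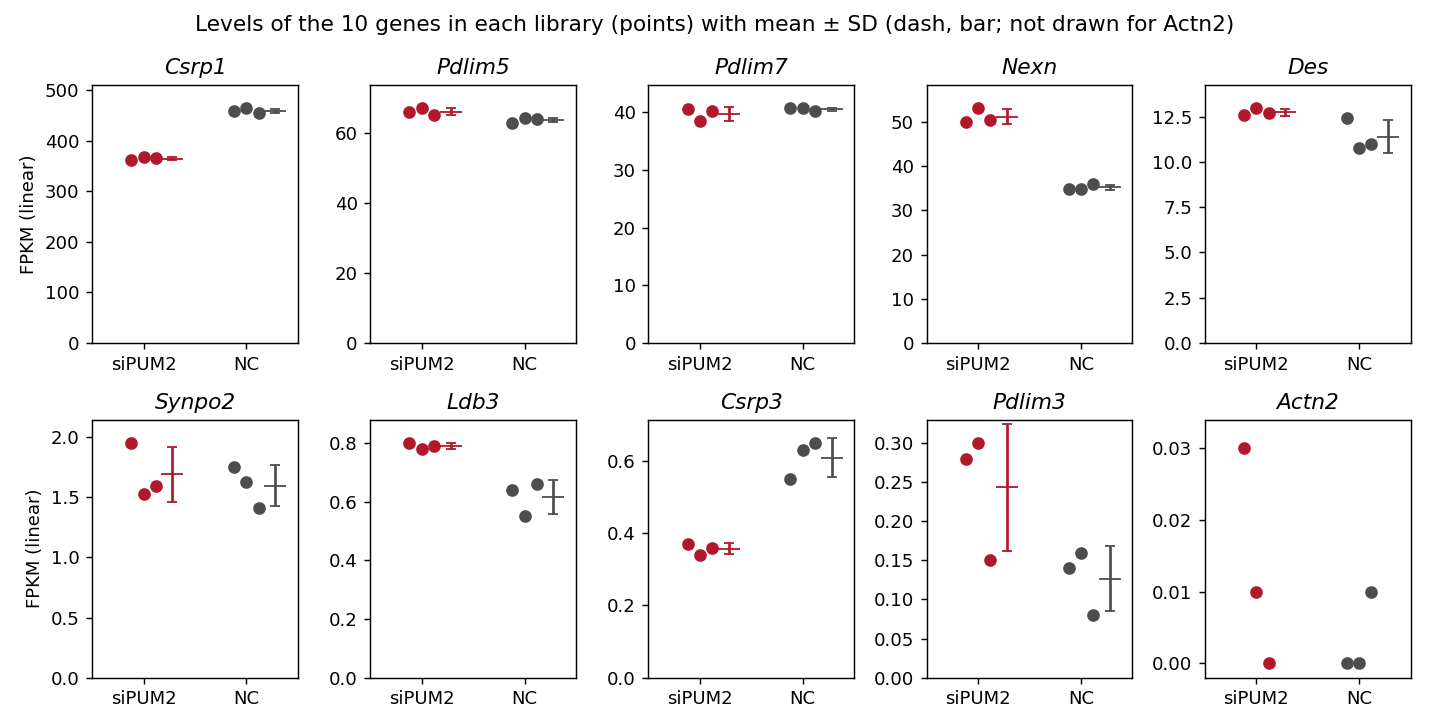
Level of each of the 10 genes in every library, in FPKM on linear axes that differ between panels, with siPUM2 in red and NC in grey. Points are libraries, and the dash and bar beside them are the mean and SD, which are not drawn for Actn2. The groups are far apart for Nexn and Csrp1, and Actn2 does not exceed 0.03 FPKM.

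Of the 10 genes, 8 passed the filter on low counts and were tested; Nexn, Ldb3 and Des were called higher, Csrp1 was called lower, and Csrp3, Pdlim5, Pdlim7 and Synpo2 were not called. Pdlim3 and Actn2 did not pass the filter. The threshold for a call was an adjusted p of 0.05 over the 12985 genes tested, of which 28.4% were called, 15.1% higher and 13.3% lower. With so few genes, 4 called of 8 tested is not a result about the group, and what the data show lies in the single genes. The median log2 fold change of the 8 was 0.07, and that of all genes tested was 0.00106.

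**Figure D2:**
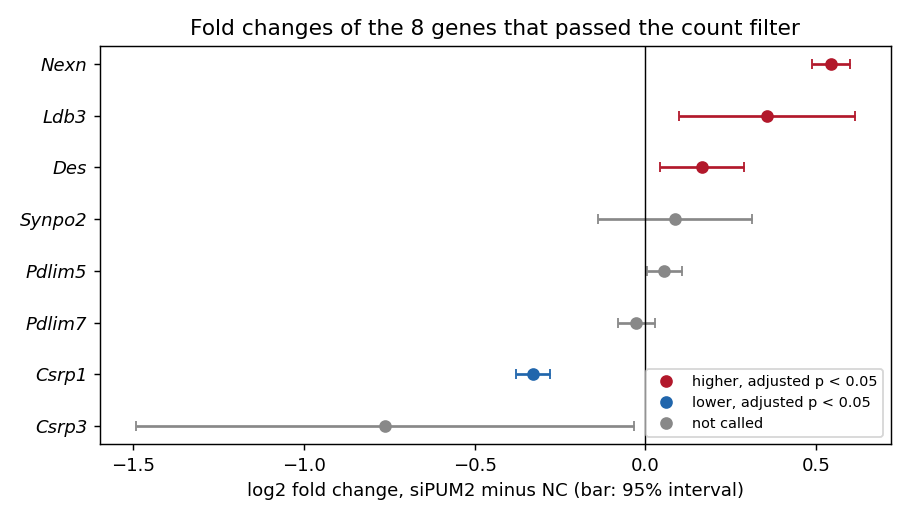
Log2 fold change (siPUM2 minus NC) of the 8 genes that passed the filter on low counts, with 95% intervals from edgeR's quasi-likelihood fit; red genes were called higher, blue lower and grey not called. Nexn at 0.54 and Csrp1 at -0.33 lie far from 0 with narrow intervals, whereas the interval of Csrp3 runs from -1.49 to -0.03.

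The stretches before the annotated gene starts are shown for the 4 called genes. Whether they have a part in the changes was not tested, and binding sites of Pumilio proteins in the messages were not searched. They are RefSeq sequences of the rat assembly GRCr8, 250 bases before the start, read 5′ to 3′ along the gene; the build that the submitters' processing notes name for the counts is mRatBN7.2. Nexn lies at chr2:243878153-243878402 (minus strand), Csrp1 at chr13:49709678-49709927 (plus strand), Ldb3 at chr16:9924680-9924929 (minus strand) and Des at chr9:84299376-84299625 (plus strand). Capitals mark matches to 4 motifs of muscle genes, searched on both strands: the CArG box of serum response factor, the MEF2 box, the MCAT element of TEAD factors (CATTCC, found on the other strand in Nexn) and the E-box of myogenic factors with the letters CAGCTG.
Nexn: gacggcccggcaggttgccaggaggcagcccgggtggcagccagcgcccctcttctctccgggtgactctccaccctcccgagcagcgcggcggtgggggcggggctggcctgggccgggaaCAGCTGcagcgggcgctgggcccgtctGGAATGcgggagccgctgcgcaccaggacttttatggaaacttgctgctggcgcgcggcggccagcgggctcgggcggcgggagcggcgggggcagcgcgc
Csrp1: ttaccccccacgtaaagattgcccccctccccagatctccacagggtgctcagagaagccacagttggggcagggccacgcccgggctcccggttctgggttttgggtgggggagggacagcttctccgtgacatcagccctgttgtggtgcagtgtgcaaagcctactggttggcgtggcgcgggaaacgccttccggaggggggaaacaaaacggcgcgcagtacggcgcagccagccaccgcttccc
Ldb3: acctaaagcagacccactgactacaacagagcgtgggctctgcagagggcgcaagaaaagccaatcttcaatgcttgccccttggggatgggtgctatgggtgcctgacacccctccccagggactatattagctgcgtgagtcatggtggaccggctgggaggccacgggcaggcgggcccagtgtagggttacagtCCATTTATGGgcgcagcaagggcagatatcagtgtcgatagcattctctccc
Des: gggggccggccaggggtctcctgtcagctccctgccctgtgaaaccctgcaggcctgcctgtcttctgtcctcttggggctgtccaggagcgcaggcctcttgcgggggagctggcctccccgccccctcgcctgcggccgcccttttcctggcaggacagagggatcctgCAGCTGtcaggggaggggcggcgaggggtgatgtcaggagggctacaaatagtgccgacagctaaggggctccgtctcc

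Ldb3 held a CArG box 52 to 43 bases before its start, a motif present in 1.50% of the 33469 windows of this length. Nexn held an MCAT element 101 to 96 bases before the start (12.1% of all windows) and a CAGCTG E-box at 128 to 123 bases. Des held a CAGCTG E-box 79 to 74 bases before the start, as did 4007 of all windows. No MEF2 box, found in 2.96% of all windows, was matched in any of the 4, and Csrp1 held none of the 4 motifs. No 2 matches overlapped. RefSeq sequences were at hand for 8 of the 10 genes, and the windows of Actn2, Pdlim5, Pdlim7 and Synpo2 matched none of the motifs; Csrp3 and Pdlim3 had no entry. These matches describe letters in a short window and are not evidence of binding.

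Nexilin had the largest rise of the 8 genes tested. Nexn (chromosome 2) encodes an actin-filament binding protein that holds the Z-disc together under load, and in humans its mutations cause cardiomyopathy. It was measured at 215, 229 and 218 CPM in siPUM2 1, 2 and 3, against 149.9, 150.4 and 154 CPM in NC 1, 2 and 3. Every siPUM2 library thus stood well above every NC library. The mean was 221 ± 7.05 CPM in siPUM2 and 151 ± 2.23 CPM in NC, a 1.46-fold rise (log2 fold change 0.54 ± 0.0278, SE; adjusted p = 1.58e-14, edgeR). In size it ranked 547 among the 12985 genes tested, of which the called ones changed by a median of 1.15-fold and by 1.38-fold at the 90th percentile. Leaving out each library in turn moved the log2 fold change between 0.52 and 0.56.

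The 3 genes outside the lists used here whose log2 CPM followed that of Nexn most closely over the 6 libraries, among 8394 compared, were Degs1 (a sphingolipid desaturase, Pearson r = 0.998), Atp6v1e1 (a subunit of the vacuolar proton pump, 0.998) and Nfe2l1 (a transcription factor of proteasome genes, 0.998). They rose less than Nexn, by 0.22, 0.17 and 0.32 on the log2 scale. Of the genes compared, 69 had an r over 0.99. The 6 points share their libraries and the split into 2 groups, and the likeness is a description.

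The alpha-actinin partners of the PDZ and LIM family differed in level and in call. Ldb3 (chromosome 16), also known as ZASP or Cypher and needed for Z-disc stability in striated muscle, was called higher from a low level. It had 5.48, 5.37 and 5.43 CPM in siPUM2 1, 2 and 3 (154, 149 and 158 counts), against 4.40, 3.78 and 4.53 CPM in NC 1, 2 and 3 (123, 114 and 139 counts). The groups did not overlap, and the siPUM2 libraries were nearly equal while NC 2 stood low. The mean was 5.42 ± 0.0573 CPM in siPUM2 and 4.24 ± 0.404 CPM in NC, 1.28-fold higher in siPUM2 (log2 fold change 0.36 ± 0.125, SE; adjusted p = 0.0327, edgeR). The call was lost without NC 1 (adjusted p = 0.0564), NC 2 (0.158), siPUM2 1 (0.0770), siPUM2 2 (0.0657) or siPUM2 3 (0.0625), with DESeq2 (0.106), and on log2(FPKM + 0.1) (0.0526) and log2(FPKM + 1) with no filter (0.0635, limma), while the direction was kept in all of these.

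Pdlim5 (chromosome 2), known as ENH, a scaffold that brings protein kinase C to alpha-actinin, had 464, 471 and 459 CPM in siPUM2 1, 2 and 3, against 441, 451 and 448 CPM in NC 1, 2 and 3. The groups did not overlap, which was true of 39.9% of all genes tested, and the means were 464 ± 5.89 CPM in siPUM2 and 447 ± 4.75 CPM in NC. The log2 fold change was 0.06, with a 95% interval of 0.01 to 0.11, and it was not called (adjusted p = 0.0861, edgeR). Pdlim7 (chromosome 17), known as Enigma, which binds tropomyosin and signalling kinases, overlapped between the groups at 336, 319 and 334 CPM in siPUM2 1, 2 and 3, against 337, 337 and 333 CPM in NC 1, 2 and 3. Its log2 fold change of -0.03 had an interval of -0.08 to 0.03 (adjusted p = 0.51, edgeR), so a change of the size seen in Nexn or Csrp1 lies outside its interval. Pdlim3 (chromosome 16), the actinin-associated LIM protein ALP of striated muscle, had 16, 17 and 9 counts in siPUM2 1, 2 and 3, against 8, 10 and 5 counts in NC 1, 2 and 3. The groups overlapped through siPUM2 3. The summed counts were 42 in siPUM2 (exact 95% Poisson interval 30.3 to 56.8) and 23 in NC (14.6 to 34.5). Scaled to depth, their ratio was 1.91, with an interval of 1.12 to 3.32. These intervals cover counting error only, not the spread between libraries. Fitted without the filter on low counts, Pdlim3 had a log2 fold change of 0.92 and was not called (adjusted p = 0.216, edgeR).

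The abundant Csrp1 fell. Csrp1 (chromosome 13) encodes a LIM protein of smooth muscle and fibroblasts that binds alpha-actinin and zyxin on actin bundles. It was measured at 685, 697 and 696 CPM in siPUM2 1, 2 and 3, against 869, 879.8 and 861 CPM in NC 1, 2 and 3. The 2 groups were far apart, with libraries inside each within a few percent of each other. The mean was 693 ± 6.74 CPM in siPUM2 and 870.0 ± 9.50 CPM in NC, so that siPUM2 held 79.6% of the control level (log2 fold change -0.33 ± 0.0239, SE; adjusted p = 1.80e-11, edgeR). With each library left out in turn the log2 fold change stayed between -0.34 and -0.32. Markers of smooth muscle, a tissue in which Csrp1 is abundant, were called higher, by 0.14 (Smtn) to 0.70 (Myh11) on the log2 scale. Lmod1 rose by 0.69, Myocd by 0.65 and Acta2 by 0.18. Of 8 fibroblast markers, Pdgfra, Dcn and Lum did not pass the filter on low counts. Among the rest, 3 were called lower, Col1a1 (-0.08), Col3a1 (-0.10) and Pdgfrb (-0.08), and 1 higher, Thy1 (0.31). Over all genes tested, 28.4% were called in either direction. The genes outside the lists that followed Csrp1 most closely over the 6 libraries were the activity-induced gene Arc (r = 0.999), the splicing factor gene Sfpq (0.999) and Pid1, a regulator of insulin signalling (0.999). Their log2 fold changes were -0.53, -0.18 and -0.30. Of the 8394 genes compared, 41 had an r with Csrp1 over 0.99, and as for Nexn the likeness is a description.

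Csrp3 (chromosome 1), the muscle LIM protein MLP, a regulator of myogenic differentiation and of the Z-disc, was close to the detection limit. It had 11, 10 and 11 counts in siPUM2 1, 2 and 3, against 16, 20 and 21 counts in NC 1, 2 and 3. Every siPUM2 library lay under every NC library. The summed counts were 32 in siPUM2 (exact 95% Poisson interval 21.9 to 45.2) and 57 in NC (43.2 to 73.9). Scaled to depth, their ratio was 0.587, with an interval of 0.368 to 0.92 that covers counting error only. The log2 fold change was -0.76 ± 0.356 (SE) and Csrp3 was not called (adjusted p = 0.114, edgeR). On log2(FPKM + 1), a scale that does not use the small counts behind the values, it was called (log2 fold change -0.25, adjusted p = 0.00301, limma).

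Actn2 (chromosome 17), the alpha-actinin of heart and skeletal Z-discs, was at the limit of detection. It had 3, 1 and 0 counts in siPUM2 1, 2 and 3, against 0, 0 and 1 counts in NC 1, 2 and 3. The summed 4 counts in siPUM2 (exact 95% Poisson interval 1.09 to 10.2) and 1 count in NC (0.0253 to 5.57) gave a ratio of 4.18 with an interval of 0.414 to 206, so that no difference was detectable at this depth. Actn3, the other sarcomeric alpha-actinin, was also scarce, at 0.13 FPKM in siPUM2 and 0.183 FPKM in NC (7 to 22 counts a library). It was not called (log2 fold change -0.53, adjusted p = 0.321, edgeR). The cells mainly carried the non-sarcomeric alpha-actinins Actn1, at 176 FPKM in siPUM2 and 180.0 FPKM in NC, and Actn4, at 369 FPKM in siPUM2 and 375 FPKM in NC. Neither was called (log2 fold change -0.03, adjusted p = 0.484, and -0.02, adjusted p = 0.563, edgeR).

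Synpo2 (chromosome 2), also called myopodin, bundles actin at the Z-disc and takes part in autophagy of damaged filamin. It had 9.0, 7.10 and 7.38 CPM in siPUM2 1, 2 and 3, against 8.09, 7.55 and 6.49 CPM in NC 1, 2 and 3. The groups overlapped, and siPUM2 1 was the highest library. The log2 fold change of 0.09 had a 95% interval of -0.14 to 0.31 (adjusted p = 0.605, edgeR), and it turned to -0.02 without siPUM2 1.

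Desmin (Des, chromosome 9), the intermediate filament protein of muscle, was slightly higher. It had 30.9, 31.8 and 31.2 CPM in siPUM2 1, 2 and 3, against 30.5, 26.4 and 26.8 CPM in NC 1, 2 and 3. The groups did not overlap, but NC 1 lay just under the lowest siPUM2 library and apart from NC 2 and NC 3. The mean was 31.3 ± 0.461 CPM in siPUM2 and 27.9 ± 2.23 CPM in NC, 1.12-fold higher in siPUM2 (log2 fold change 0.17 ± 0.0598, SE; adjusted p = 0.0367, edgeR). The call was lost without NC 2 (adjusted p = 0.161), NC 3 (0.120) or siPUM2 2 (0.0895), with DESeq2 (0.0849), and on log2(FPKM + 1) (0.0686), log2(FPKM + 0.1) (0.0635) and log2(FPKM + 1) with no filter (0.14, limma). Without NC 1 the log2 fold change was 0.23 (adjusted p = 0.00469).

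**Figure D3:**
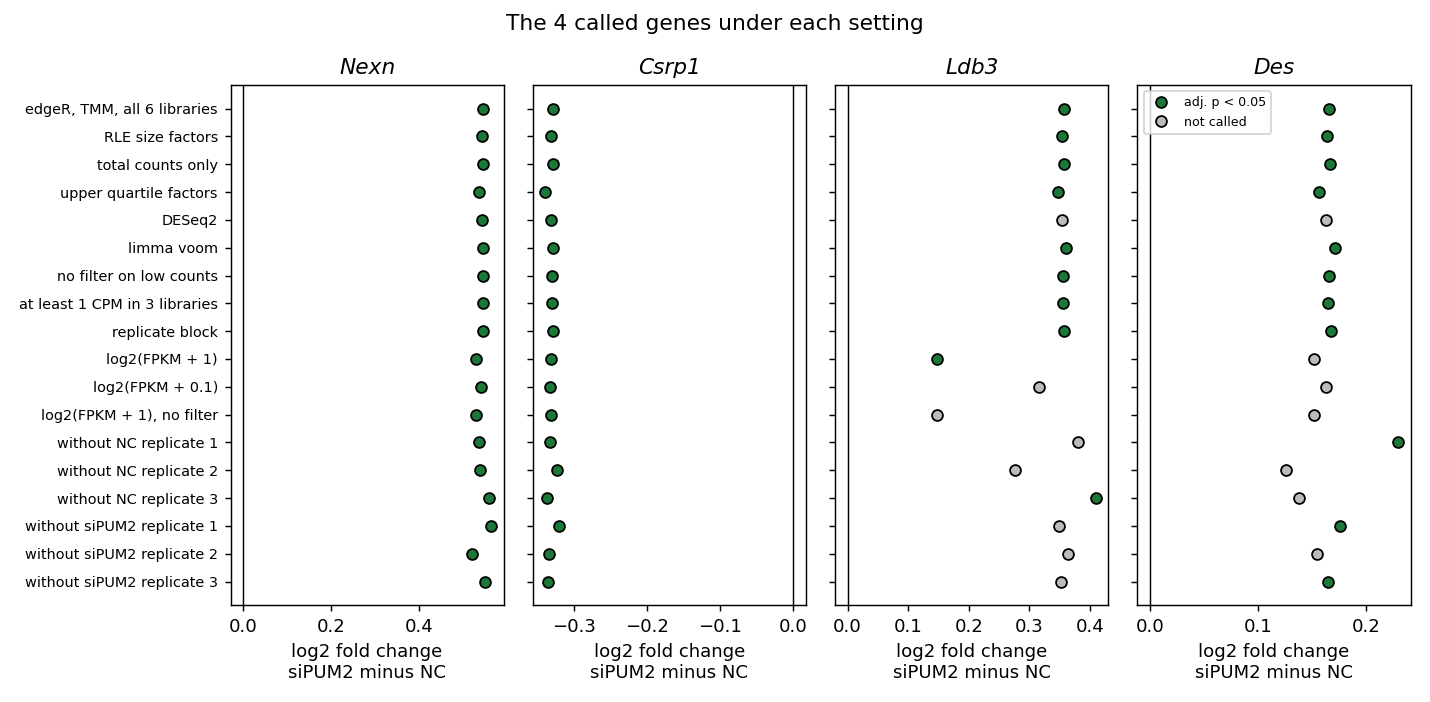
Log2 fold change (siPUM2 minus NC) of the 4 called genes under each setting, with axes that differ between panels; green points had an adjusted p under 0.05 and grey points did not. Nexn and Csrp1 were called under every setting shown, whereas Ldb3 and Des lost their calls under several, Ldb3 when any of 5 libraries was left out and Des when any of 3 was.

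Ratios of related messages within each library, per length, gave the balance inside the families. Csrp3 amounted to 0.103%, 0.0926% and 0.0986% of Csrp1 in siPUM2 1, 2 and 3, against 0.120%, 0.136% and 0.143% in NC 1, 2 and 3, with every siPUM2 library under every NC library. Pdlim7 amounted to 60.1 ± 2.41% of Pdlim5 in siPUM2 and 63.6 ± 0.927% in NC (SD, n = 3 each). Ldb3 amounted to 1.2 ± 0.0274% of Pdlim5 in siPUM2 and 0.968 ± 0.0971% in NC. For each of these 3 ratios the groups did not overlap, which gives the smallest p that an exact two-sided permutation test of 3 against 3 libraries allows, 0.1 (0.167 adjusted over the 5 ratios tested), so none could pass 0.05. Pdlim3 amounted to 0.367 ± 0.119% of Pdlim5 in siPUM2 and 0.199 ± 0.0653% in NC (exact permutation p = 0.2, adjusted 0.25). Desmin amounted to 0.794 ± 0.0185% of vimentin (Vim), the intermediate filament protein of mesenchymal cells, in siPUM2 and 0.740 ± 0.0587% in NC (exact permutation p = 0.3, adjusted 0.3). The ratio of Actn2 to its relatives was not tested, because Actn2 was at 0 in 3 libraries.

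The closest relatives of the 10 genes changed in both directions. Of 15 measured, 5 rose, 3 fell and 7 were not called; their median log2 fold change was -0.02, against 0.00106 over all genes tested. Genes with a mean of at least 10 CPM were called more often in general (37.3%), and 13 of the relatives were that abundant, 8 of them called. Lmcd1, a LIM protein that represses GATA6, had 127, 128 and 131 CPM in siPUM2 1, 2 and 3, against 98.5, 92.3 and 92.5 CPM in NC 1, 2 and 3 (log2 fold change 0.45; adjusted p = 3.73e-12, edgeR). Pdlim1, an actinin-binding relative of Pdlim3, stood at 559 ± 6.14 CPM in siPUM2 and 462 ± 5.32 CPM in NC (log2 fold change 0.28). The synaptopodins split: Synpo, which bundles actin in kidney podocytes and neurons, fell by 0.51 on the log2 scale, and Synpo2l, the relative expressed in heart and skeletal muscle, rose by 0.20. Csrp2, the remaining gene of the Csrp family, fell as Csrp1 did, to 50.2 ± 0.837 CPM in siPUM2, against 58.3 ± 1.05 CPM in NC (log2 fold change -0.22; adjusted p = 0.000299, edgeR); it was picked for this after its values were seen.

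Among other Z-disc proteins 30 were measured and 23 tested; 8 rose, 1 fell and 14 were not called; the median log2 fold change was 0.03. The 9 called were 39.1% of those tested, beside 28.4% of all genes, and of the 13 with a mean of at least 10 CPM 38.5% were called, near the 37.3% of all genes that abundant. This count rested on the libraries used, and was 3 called without NC 2, 4 without NC 1 and 4 without siPUM2 2. Cryab, the small heat shock protein that guards desmin and titin, had 521, 512 and 527 CPM in siPUM2 1, 2 and 3, against 395, 393 and 391 CPM in NC 1, 2 and 3 (log2 fold change 0.40; adjusted p = 3.90e-13, edgeR). Ankrd1, a stretch-responsive ankyrin repeat protein of the titin filament, stood at 2690.1 ± 27.8 CPM in siPUM2 and 2175 ± 7.38 CPM in NC (log2 fold change 0.31). Trim63, the muscle ubiquitin ligase MuRF1, rose by 0.28. Cavin4, a caveolar protein near the Z-disc, fell by 0.43 on the log2 scale at 3.17 CPM in siPUM2 and 4.27 CPM in NC; its call was lost without NC 1 (adjusted p = 0.0775), NC 2 (0.0903) or siPUM2 1 (0.128), and with DESeq2 (0.0823). The giant proteins of the sarcomere were also scarce per length, near the last decimal of the deposited FPKM: titin (Ttn), with 43 to 56 counts a library, averaged 0.0133 FPKM in siPUM2 and 0.01 FPKM in NC, nebulin (Neb) averaged 0.01 FPKM in siPUM2 and 0.0133 FPKM in NC, and neither was called.

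Many genes of the costamere list were called, but the list was chosen with earlier results of these data known. Of 36 measured, 34 were tested, 16 rose, 6 fell and 12 were not called; the median log2 fold change was 0.12. Of the 31 with a mean of at least 10 CPM, 21 (67.7%) were called, beside 37.3% of all genes that abundant. That share covers every gene from 10 CPM up and was not matched to the levels of this list. Leaving out each library in turn gave 20 to 24 calls among all genes of the list, and the other alternatives gave 17 to 23. Itga7, the integrin alpha chain that binds laminin in muscle, had 549.5, 539.7 and 548 CPM in siPUM2 1, 2 and 3, against 403, 402 and 403 CPM in NC 1, 2 and 3 (log2 fold change 0.44; adjusted p = 7.13e-14, edgeR). Its partner Itgb1 stood at 2378 ± 34 CPM in siPUM2 and 1903 ± 15.1 CPM in NC (log2 fold change 0.32). Tns1, tensin, which ties integrins to actin, rose by 0.37 on the log2 scale. Delta-sarcoglycan (Sgcd), of the dystrophin-glycoprotein complex, had the largest called rise of the list, with 24.3, 27.0 and 26.0 CPM in siPUM2 1, 2 and 3, against 14.6, 14.7 and 14.8 CPM in NC 1, 2 and 3 (log2 fold change 0.81; adjusted p = 4.10e-11, edgeR; picked after its values were seen). The 6 called lower were Dtnb (-0.40), talin 2 (Tln2, -0.27), zyxin (Zyx, -0.17), which Csrp1 binds, Lims1 (-0.12), Vasp (-0.08) and Dag1 (-0.08). Dtnb and Dag1 are, like Sgcd, genes of the dystrophin-glycoprotein complex. Vinculin (Vcl, 0.06) and talin 1 (Tln1, -0.01) were not called.

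Of 13 intermediate filament genes and linkers measured, 10 were tested, 3 rose, 2 fell and 5 were not called; the median log2 fold change was -0.00105. All 10 had a mean of at least 10 CPM, and the 5 called stand beside a share of 37.3% of all genes that abundant. The lamin gene Lmnb1 fell by 0.28 on the log2 scale and Krt8, an epithelial keratin, by 0.27. The giant linkers of actin to microtubules and filaments, Macf1 and Dst, rose by 0.19 and 0.18. The call for Dst was lost on log2(FPKM + 1) (adjusted p = 0.0675, limma), log2(FPKM + 0.1) (0.066) and log2(FPKM + 1) with no filter (0.103). Vimentin, the main filament of these cells at 1605 FPKM in siPUM2 and 1539 FPKM in NC, had a log2 fold change of 0.06 and passed narrowly (adjusted p = 0.0449, edgeR); that call was lost when any single library was left out (adjusted p = 0.0641 to 0.171). Nestin (Nes, 0.05), synemin (Synm, -0.05) and syncoilin (Sync, 0.01), which join desmin filaments in muscle, were not called.

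**Figure D4:**
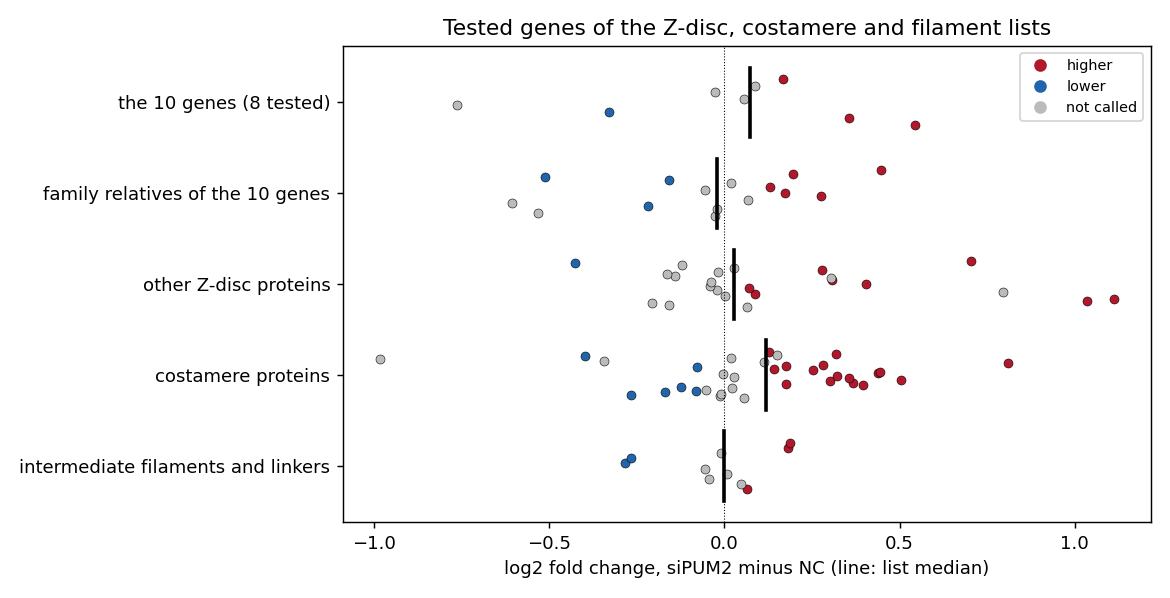
Log2 fold change (siPUM2 minus NC) of each tested gene of the 10 and of the 4 surrounding lists; red points were called higher, blue lower and grey not called, and the black line is the median of the list. The costamere list has its median at 0.12 with 16 genes higher and 6 lower, and the others lie within 0.1 of 0.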

How the data were processed

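The libraries were strand-specific, paired-end and made from captured messenger RNA, per the labels' protocols. HISAT2 and DESeq2 are named in the submitters' processing notes, with the build mRatBN7.2. Which versions, gene annotation and read counter were used was not given in the sources used here. Whole-number counts per gene and FPKM values with 2 decimals were deposited by the authors, per the file headers; gene counts do not separate splice forms. Counts were tested with edgeR 4.0.16 (filterByExpr, TMM factors, quasi-likelihood, group as the only term) in R 4.3.3; the filter removed 6840 genes with 0.0465% of the counts. FPKM served only to compare levels between genes and in alternatives with limma 3.58.1; DESeq2 1.42.0 was a further alternative. Intervals on summed counts cover counting error only. The test was checked on simulated data. No libraries were merged: pairs within a group had a chi-square of 2.07 to 3.80 per degree of freedom, above counting error.

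The 10 genes and the surrounding lists were chosen with earlier results of these data known. Of 110 list entries, 104 matched by symbol. Named were all 10 genes, Pum2, the genes of the ratios, from each other list the 4 called genes with the lowest p, and the 3 genes most like Nexn and Csrp1; any further gene was picked after its values were seen. A gene that this rule named is not reported here. Promoter sequences are RefSeq's, of GRCr8, used with no conversion of coordinates.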

Additional observations from a re-analysis of the deposited data

How the results depend on the processing

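Nexn and Csrp1 kept their direction and call under every alternative run, and Pum2 did too. The count of called genes among the 10 (4; 3 higher, 1 lower) was 2 (1 higher, 1 lower) with DESeq2 and at an adjusted p under 0.01. On log2(FPKM + 1) 2 were lower, and on log2(FPKM + 0.1) and on log2(FPKM + 1) with no filter 1 was higher and 2 were lower, the added gene being Csrp3. Leaving out each library in turn gave 2 to 3 called, 1 to 2 higher. Over all genes 3692 were called, and 2246 on log2(FPKM + 1) with no filter. Of the surrounding lists, whose alternatives were chosen after seeing the data, other Z-disc proteins had 9 called, 4 with DESeq2 and 3 to 8 with each library left out; filament genes had 5 called, 3 on either FPKM scale and 2 with no filter. The direction of Synpo2 reversed without siPUM2 1, with log2 fold changes of -0.024 to 0.15 when each library was left out. Upper quartile factors gave 1823 higher and 1956 lower calls. With the replicate number as a block 3731 genes and 4 of the 10 were called; same-numbered libraries deviated from their group means with correlations of 0.0238, 0.0258 and 0.00373, siPUM2 3 did not correlate best with its own number, and the samples share only a number. Depth limits Actn2, Pdlim3 and Csrp3; 3 counts were worth 0.0978 to 0.108 CPM.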

Other observations

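Of 10 markers of skeletal myoblasts and myotubes measured, Chrna1, Myh8 and Tnni1 did not pass the filter on low counts. Among the rest, 3 were called lower and 1 higher, beside 28.4% of all genes tested that were called in either direction. The lower ones were myogenin (Myog, log2 fold change -1.12), which opens terminal differentiation of myoblasts, embryonic myosin (Myh3, -0.93) and fast troponin T (Tnnt3, -0.47), and the higher one was M-cadherin (Cdh15, 0.20). Cardiac troponin T (Tnnt2) was called higher at 0.67. Among Z-disc genes of striated muscle near the detection limit, calsarcin 1 (Myoz2) was at 0.768 ± 0.244 CPM in siPUM2 and 0.373 ± 0.0522 CPM in NC (log2 fold change 1.03; adjusted p = 0.0316, edgeR), and myotilin (Myot) at 0.589 ± 0.0469 CPM in siPUM2 and 0.269 ± 0.0558 CPM in NC (1.11; adjusted p = 0.0344, edgeR). Both were picked after their values were seen. The call for Myoz2 was lost without NC 1 (adjusted p = 0.0535), NC 2 (0.0826), NC 3 (0.0984) or siPUM2 2 (0.201), and that for Myot without NC 1 (0.113), NC 2 (0.0838), siPUM2 1 (0.103), siPUM2 2 (0.0710) or siPUM2 3 (0.0601).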
